A study of Mus musculus with 6 samples.

Results

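AP-1 subunits and other genes of the rapid transcriptional response were compared between HSCs, the hematopoietic stem cells of the bone marrow, that lacked or carried the ribosomal protein Rpl22. The members were set by name, with earlier results of these data known, as *Fos*, *Fosb*, *Jun*, *Junb*, *Jund*, *Egr1*, *Ier2*, *Ier5*, *Atf3* and *Dusp1*, and all 10 were found by symbol among the 34573 genes of the count table. The study sorted HSCs from *Rpl22*-/- mice, in which the gene is lost from the germline in every tissue, and from *Rpl22*+/+ mice, and sequenced polyA RNA from 3 samples of each genotype. The mice of the study were young adults backcrossed to the C57BL/6 background, and no treatment was given. The cells were negative for lineage markers and CD48 and positive for c-Kit, Sca-1 and CD150, and they went straight from the sorter into the lysis reagent. The labels call the samples replicates without saying whether each came from its own mouse, so the p-values below measure the spread between these samples, which may be partly technical. In bulk RNA of this kind fewer cells of a type and less RNA per cell cannot be told apart.

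AP-1 is a dimeric transcription factor built from a Jun protein with either a second Jun protein, a Fos protein or a relative of the ATF and BATF families, and it binds short palindromic sites in promoters and enhancers. Its genes belong to the immediate early class, which needs no new protein synthesis to be switched on: growth factors, cytokines and stress act through MAP kinases on factors already bound to the promoters, such as SRF with its ternary complex partners and CREB, and transcription starts within minutes. The transcripts and proteins are short-lived, and several products, among them the phosphatase Dusp1, act back on the kinases. In HSCs, genes of this class are known for their association with the balance of quiescence and cell cycle entry, and in cells isolated from tissue also for their quick response to handling.

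Between 9321123 and 13385850 reads per library were assigned to genes, the fewest in *Rpl22*+/+ replicate 3. *Rpl22* itself averaged 40.1 CPM ± 4.59 (SD, n = 3) in *Rpl22*-/- HSCs and 538 ± 20.7 in *Rpl22*+/+ HSCs, at a log2 fold change of -3.75 (SE 0.105, edgeR adjusted p = 2.97e-12). CPM is the read count of a gene scaled to a common library size, with library sizes corrected by the TMM method (trimmed mean of M values). All differences are given as log2 fold changes of *Rpl22*-/- over *Rpl22*+/+ HSCs from edgeR's quasi-likelihood test on 14004 genes with enough reads, with the standard error (SE) and with p adjusted over all of these genes by the Benjamini-Hochberg method. A gene is said to have risen or fallen, or to have been called, when this adjusted p was below 0.05. The first principal component held 42.0% of the variance and separated the genotypes, with *Rpl22*-/- replicate 1 the nearest of its group to the *Rpl22*+/+ libraries. The 8 HSC markers listed were all detected, and their summed level was 2104 to 2302 CPM in *Rpl22*-/- and 2274 to 2332 CPM in *Rpl22*+/+ libraries. One of them, *Fgd5*, named after its values were seen, fell (log2 fold change -0.41, edgeR adjusted p = 0.0308).

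Of the 10 members, 8 had enough reads for the test, and *Fosb* and *Atf3* did not. All 8 were higher in *Rpl22*-/- HSCs, and 5 of them, *Fos*, *Junb*, *Jund*, *Ier5* and *Dusp1*, rose by 1.36- to 1.91-fold. Over all genes tested 5.57% were called, made up of 3.28% that were higher and 2.29% that were lower in *Rpl22*-/- HSCs. *Jun*, *Egr1* and *Ier2* did not pass after adjustment, although 7 of the 8 had an unadjusted p below 0.05. The median log2 fold change of the 8 was 0.76, beside -0.0068 over all genes tested. In 5 of the 8, *Fos*, *Junb*, *Jund*, *Ier5* and *Dusp1*, every *Rpl22*-/- library lay above every *Rpl22*+/+ library, which was so for 13.3% of all genes tested.

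**Figure D1:**
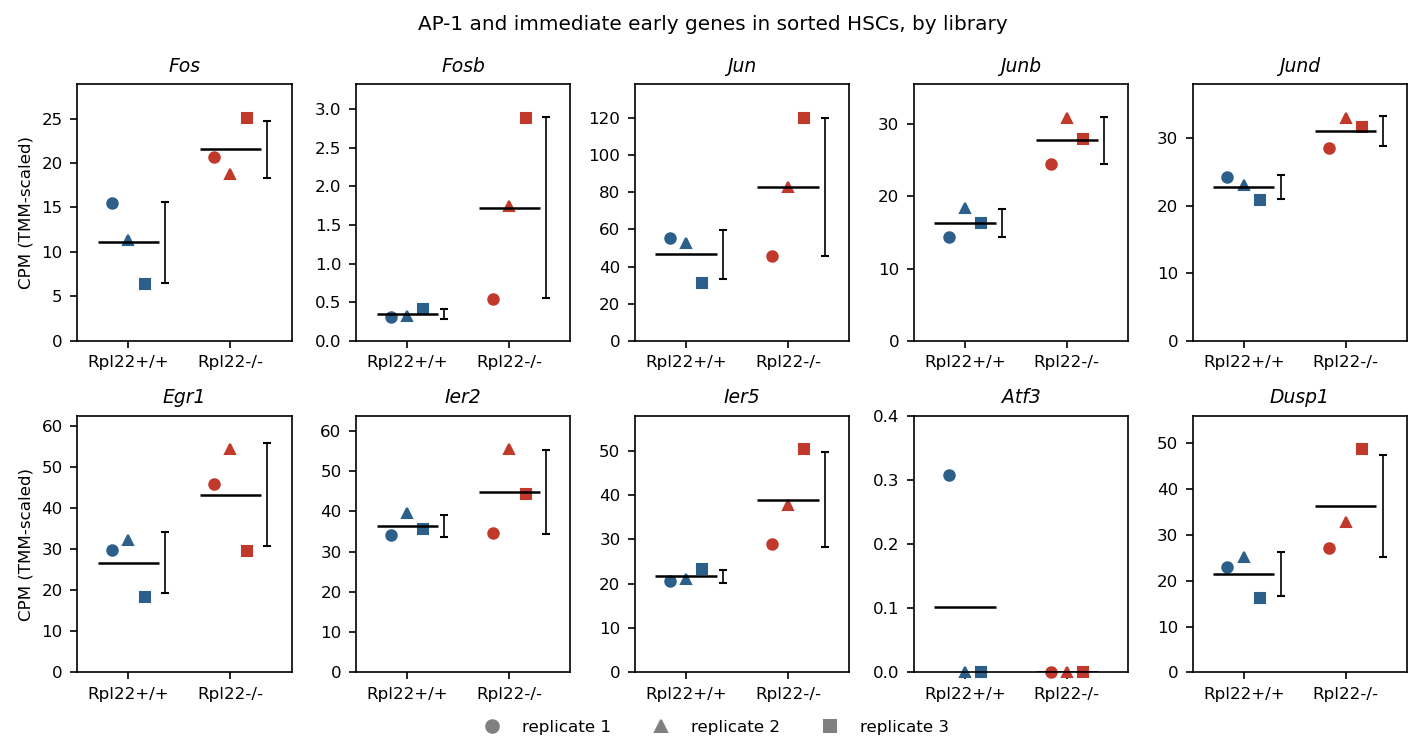
CPM of each of the 10 genes (vertical axes, from 0, scaled separately) in 3 *Rpl22*+/+ (blue) and 3 *Rpl22*-/- (red) libraries, with marker shapes for the replicate number, a bar for the mean and an error bar for the SD where every library of the group had reads. *Fos*, *Junb*, *Jund*, *Ier5*, *Dusp1* and the sparsely counted *Fosb* showed no overlap between genotypes, whereas for *Jun*, *Egr1* and *Ier2* at least 1 *Rpl22*-/- library fell among the *Rpl22*+/+ ones.

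How many members passed depended on single libraries, as did the share of all genes called. Without *Rpl22*-/- replicate 3, 1 member, *Junb*, was called, when 0.892% of all genes were. Without *Rpl22*-/- replicate 2 and without *Rpl22*+/+ replicate 1 the number was 3 each, with 2.59% and 1.44% of all genes called. Without *Rpl22*+/+ replicate 2 or replicate 3 it was 2 each, with 1.82% and 1.69% of all genes called. Without *Rpl22*-/- replicate 1 it rose to 8 of 9 tested, *Fosb* included, with 12.1% of all genes called. *Fosb*, with 4 reads in each wild-type library, passed the filter only through its *Rpl22*-/- reads, so its call is not separate support. With the third library of each genotype left out together, an alternative chosen after the values were seen, edgeR called 0 of the 8 (5 had an unadjusted p below 0.05) and 18 genes in all. In every one of these fits all 8 were higher in *Rpl22*-/- HSCs, and the median log2 fold change of the members tested, 9 where *Fosb* passed the filter and 8 otherwise, was 0.47 to 0.92.

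RefSeq's promoter table (GRCm38.p6, 250 bases before to 50 after the start site) held 8 of the 10 members, and *Ier2* and *Egr1* were not matched. The stretches upstream of 4 of the members that rose are shown, since these genes rose and CREB, named above, is known to bind the cAMP response element. Each runs 5′ to 3′ on the strand of the gene and ends at the base before the start site. Capitals mark a cAMP response element (TGACGTCA), its shorter form (TGACG, contained in the former, or CGTCA on the other strand) or a TATA box (TATAA). *Jund*, the fifth member that rose, is not shown because its window held none of the letters searched. Its RefSeq start site (70697739) is also not that of the annotation (70698949). The start sites differed as well for *Junb* (84978748 in RefSeq, 84978718 in the annotation) and *Dusp1* (26508472 and 26562128), whose RefSeq windows are shown. The windows are, in GRCm38.p6, chr12:85473730-85473889 on the plus strand for *Fos*, chr8:84978749-84978868 on the minus strand for *Junb*, chr1:155099637-155099756 on the minus strand for *Ier5* and chr17:26508473-26508672 on the minus strand for *Dusp1*.
Fos: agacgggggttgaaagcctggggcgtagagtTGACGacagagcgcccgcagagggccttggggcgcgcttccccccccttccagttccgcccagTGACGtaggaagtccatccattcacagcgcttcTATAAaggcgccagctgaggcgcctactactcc
Junb: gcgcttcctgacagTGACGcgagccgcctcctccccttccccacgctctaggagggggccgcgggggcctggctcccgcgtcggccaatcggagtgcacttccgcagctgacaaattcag
Ier5: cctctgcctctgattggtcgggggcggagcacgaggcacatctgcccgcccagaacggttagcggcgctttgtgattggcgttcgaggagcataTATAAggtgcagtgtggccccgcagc
Dusp1: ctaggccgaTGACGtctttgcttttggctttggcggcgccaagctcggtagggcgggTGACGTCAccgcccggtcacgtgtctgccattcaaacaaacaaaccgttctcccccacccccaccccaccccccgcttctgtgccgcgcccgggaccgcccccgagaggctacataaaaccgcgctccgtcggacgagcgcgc

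The letters TGACG, read on both strands, were found in the windows of 5 of the 8 matched members and in 20.8% of 32851 promoters. *Fos* held them at positions -129 and -66 from the start site, *Junb* at -106, *Fosb* at -60, *Atf3* at -7, and *Dusp1* at -191 and within the full TGACGTCA at -143. The full element was found in 1 of the 8 and in 1.79% of all promoters. TATAA was found in 3 of the 8, at -33 in *Fos*, at -26 in *Ier5* and at 1 in *Junb*, just past the stretch printed, and in 24.9% of all promoters. The Sp1 site GGGCGG, not marked above, was found in 6 of the 8 and in 35.7% of all promoters. The AP-1 site TGACTCA was found in 0 of the 8 and in 5.20% of all promoters, and the CArG box of SRF in 0 of the 8 and in 1.63%. A match describes letters in a window and not a bound site, and a window without one says only that these letters are not in it.

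Among the Fos proteins, which bind DNA only as partners of Jun proteins, *Fos* rose. *Fos* (ENSMUSG00000021250; chromosome 12, 85473890 to 85477273, plus strand, GRCm38) encodes the founding member of the group. It had 266, 226 and 330 reads in *Rpl22*-/- replicates 1 to 3, or 20.7, 18.8 and 25.1 CPM. The *Rpl22*+/+ replicates had 202, 141 and 62 reads, or 15.5, 11.3 and 6.45 CPM. Every *Rpl22*-/- library was thus above the highest *Rpl22*+/+ library, and the wild-type libraries were spread more widely, with replicate 3 the lowest. The log2 fold change was 0.94 (SE 0.223, edgeR adjusted p = 0.0246), the largest of the 8. *Fos* was no longer called without *Rpl22*-/- replicate 3 or without *Rpl22*+/+ replicate 2 or 3, and its log2 fold change with 1 library left out lay between 0.68 and 1.26.

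*Fosb* (ENSMUSG00000003545; chromosome 7, 19302696 to 19310051, minus strand), which encodes a close relative of Fos, was near the limit of detection. It had 7, 21 and 38 reads in the *Rpl22*-/- libraries, against 4 reads in each of the *Rpl22*+/+ libraries. The ranges of the genotypes were separate, and *Rpl22*-/- replicate 1 stood close to the wild-type level. Without a filter on low counts its log2 fold change was 2.30 (SE 0.585, edgeR adjusted p = 0.00304), whereas in the fits without 1 of the *Rpl22*+/+ libraries, where it also passed the filter, the adjusted p ran from 0.110 to 0.147. The filter was passed only through the *Rpl22*-/- reads, where *Fosb* was high, so these values are not separate support for a rise.

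The other Fos genes, *Fosl1* and *Fosl2*, were not called. *Fosl2* (log2 fold change 0.53, SE 0.263, edgeR adjusted p = 0.245) had 32.7 CPM in *Rpl22*-/- replicate 1 and 12.0 to 16.4 in the other 5 libraries. The library that was lowest of its genotype for most members was therefore the highest for *Fosl2*, and without it the log2 fold change of *Fosl2* was 0.024.

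Within the Jun family, whose proteins form the DNA-binding core of every AP-1 dimer, *Junb* and *Jund* rose while *Jun* varied most between libraries. *Junb* (ENSMUSG00000052837; chromosome 8, 84974484 to 84978718, minus strand) encodes a subunit that often opposes Jun in growth control. It had 24.4, 30.8 and 27.9 CPM in *Rpl22*-/- replicates 1 to 3 (313, 370 and 367 reads). In *Rpl22*+/+ replicates 1 to 3 it had 14.4, 18.3 and 16.2 CPM (187, 228 and 156 reads). The groups were well apart, and the spread within each was small beside the gap. *Junb* had the smallest p of the members (log2 fold change 0.76, SE 0.139, edgeR adjusted p = 0.00764), and it was called in 18 of 19 alternatives, the exception being the one without the third library of each genotype (adjusted p = 0.135).

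*Jund* (ENSMUSG00000071076; chromosome 8, 70698949 to 70700616, plus strand, a single exon) encodes the subunit that is expressed most evenly in resting cells. Its levels were 28.6, 33.0 and 31.7 CPM in *Rpl22*-/- replicates 1 to 3 and 24.4, 23.1 and 20.8 CPM in *Rpl22*+/+ replicates 1 to 3. The libraries of each genotype lay close together and the genotypes did not overlap. The difference was the smallest of the 5 that passed (log2 fold change 0.45, SE 0.121, edgeR adjusted p = 0.0419), and it was lost when any library other than *Rpl22*-/- replicate 1 was left out and when the libraries' trends on gene length or GC content were removed. *Jund* shares 877 exonic bases with an antisense gene on the other strand, *Gm11175*, which was also called (log2 fold change 0.72, SE 0.201, edgeR adjusted p = 0.0476). The strand setting of the counts is not given, so reads of this pair cannot be told apart.

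*Jun* (ENSMUSG00000052684; chromosome 4, 95049034 to 95052222, minus strand, a single exon) encodes the founding Jun subunit. The *Rpl22*-/- replicates had 585, 997 and 1580 reads, or 45.6, 83.0 and 120 CPM, while the *Rpl22*+/+ replicates had 722, 659 and 301 reads, or 55.5, 52.9 and 31.3 CPM. *Rpl22*-/- replicate 1 fell among the wild-type libraries, and replicate 3 stood highest. The means were 82.9 CPM ± 37.2 and 46.6 ± 13.3 (SD, n = 3 each), and the difference did not pass after adjustment (log2 fold change 0.82, SE 0.253, edgeR adjusted p = 0.0675). Without *Rpl22*-/- replicate 1 *Jun* was called, at a log2 fold change of 1.12. Without the third library of each genotype its log2 fold change was 0.24 (edgeR adjusted p = 0.642).

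**Figure D2:**
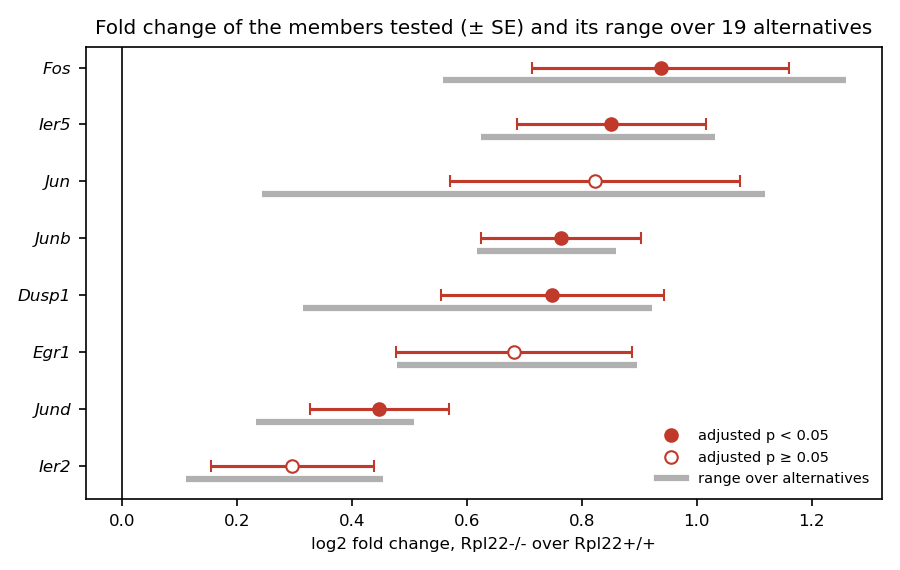
Log2 fold change of *Rpl22*-/- over *Rpl22*+/+ HSCs (horizontal axis) for the 8 members tested, with SE, filled where the edgeR adjusted p was below 0.05, and as a grey bar the range over 19 alternatives of processing and sample choice. All bars lie above 0, the narrowest being that of *Junb* (0.62 to 0.86) and the widest that of *Jun* (0.24 to 1.12).

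*Egr1* (ENSMUSG00000038418; chromosome 18, 34859823 to 34864984, plus strand) encodes a zinc finger transcription factor that is induced with Fos by the same signals and is known to favor quiescence of HSCs. It had 45.8, 54.2 and 29.6 CPM in *Rpl22*-/- replicates 1 to 3 (587, 651 and 389 reads). It had 29.7, 32.2 and 18.2 CPM in *Rpl22*+/+ replicates 1 to 3 (386, 401 and 175 reads). Here *Rpl22*-/- replicate 3, the highest library for *Fos*, *Jun*, *Ier5* and *Dusp1*, was the lowest of its genotype and overlapped with the wild type. The difference did not pass after adjustment (log2 fold change 0.68, SE 0.205, edgeR adjusted p = 0.0619), and with 1 library left out the log2 fold change lay between 0.48 and 0.90.

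*Ier5*, which encodes a nuclear protein known as a cofactor of the heat shock factor HSF1, rose clearly, and *Ier2*, a related gene of the same class, did not pass. *Ier5* (ENSMUSG00000056708; chromosome 1, 155096361 to 155099636, minus strand, a single exon) had 28.9, 37.7 and 50.3 CPM in *Rpl22*-/- replicates 1 to 3, against 20.5, 21.0 and 23.4 CPM in *Rpl22*+/+ replicates 1 to 3. The wild-type libraries were nearly level and the *Rpl22*-/- libraries were all higher but far from each other. Its log2 fold change was 0.85 (SE 0.165, edgeR adjusted p = 0.0107), and it lost its call without *Rpl22*-/- replicate 3 and without the third library of each genotype. *Ier2* (ENSMUSG00000053560; chromosome 8, 84661331 to 84662852, minus strand, a single exon) had 34.7, 55.3 and 44.2 CPM in *Rpl22*-/- replicates 1 to 3 and 34.1, 39.5 and 35.6 CPM in *Rpl22*+/+ replicates 1 to 3. *Rpl22*-/- replicate 1 matched the wild-type level, and replicate 2 was the highest. The log2 fold change of *Ier2* was 0.30 (SE 0.142, edgeR adjusted p = 0.231), and only without *Rpl22*-/- replicate 1 was it called (edgeR adjusted p = 0.0232).

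*Dusp1*, the phosphatase that switches off the stress-activated MAP kinases, also rose. The gene (ENSMUSG00000024190; minus strand of chromosome 17, 26505590 to 26562128 in the annotation, with the RefSeq start site at 26508472) had 349, 394 and 640 reads in *Rpl22*-/- replicates 1 to 3, or 27.2, 32.8 and 48.6 CPM. It had 299, 314 and 155 reads in *Rpl22*+/+ replicates 1 to 3, or 23.0, 25.2 and 16.1 CPM. *Rpl22*-/- replicate 1 was only slightly above the highest wild-type library, and the third libraries of the genotypes were the extremes. The log2 fold change was 0.75 (SE 0.194, edgeR adjusted p = 0.0350), and the call was lost without any one library other than *Rpl22*-/- replicate 1, with log2 fold changes of 0.48 to 0.92 over all fits without 1 library, and also with the GC trend removed.

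*Atf3* (ENSMUSG00000026628; chromosome 1, 191170296 to 191218039, minus strand), a stress-induced partner of Jun proteins, was close to absent from these libraries. It had 4 reads in *Rpl22*+/+ replicate 1 and 0 in each of the other 5 libraries. The 0 reads over the *Rpl22*-/- group allow a level of up to 0.0789 CPM, taking 3 counts as the limit and covering counting error only, so a difference was not detectable at this depth.

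The members did not rank the libraries in a single order. The highest library was an *Rpl22*-/- one for each of the 8 tested, replicate 2 for *Junb*, *Jund*, *Egr1* and *Ier2*, and replicate 3 for *Fos*, *Jun*, *Ier5* and *Dusp1*. Replicate 1 was the lowest of the *Rpl22*-/- libraries for 6 of the 8, the exceptions being *Fos* and *Egr1*. In medians over the 8 genes, *Rpl22*-/- replicates 1 to 3 lay 0.39, 0.82 and 0.99 above the *Rpl22*+/+ mean on the log2 scale. The corresponding values of *Rpl22*+/+ replicates 1 to 3 were 0.11, 0.15 and -0.25, replicate 3 being the lowest for 5 of the 8 genes.

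**Figure D3:**
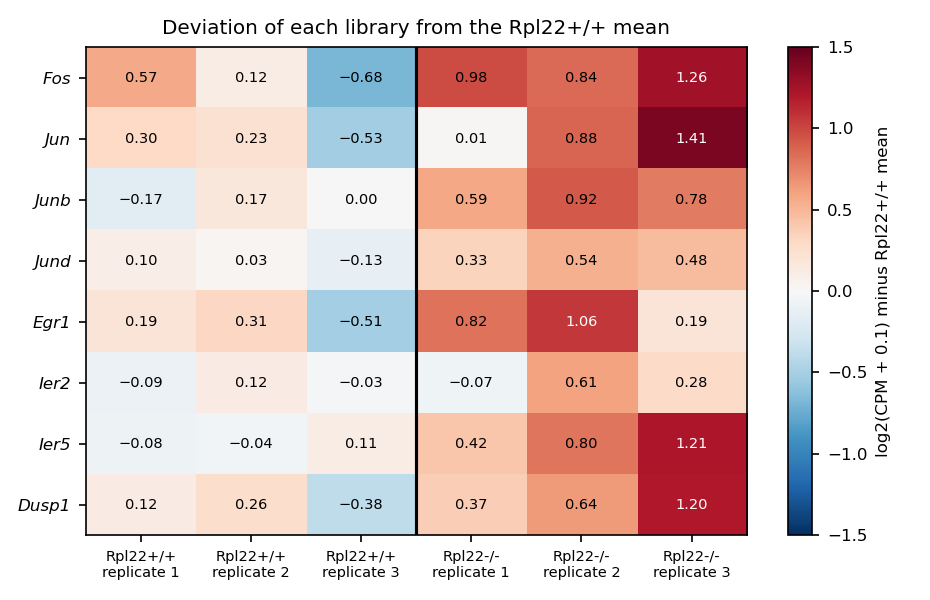
Difference of each library from the mean of the *Rpl22*+/+ libraries, in log2(CPM + 0.1), for the 8 members tested (rows) in 3 *Rpl22*+/+ and 3 *Rpl22*-/- libraries (columns, parted by the line). *Rpl22*-/- replicate 3 is highest for *Jun* at 1.41 and low for *Egr1* at 0.19, and *Rpl22*+/+ replicate 3 is lowest for *Fos* at -0.68.

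The members also differed in how abundant they were, compared as CPM per kilobase of exon. In *Rpl22*+/+ HSCs *Ier2* was the highest at 23.9 CPM per kilobase ± 1.83 (SD, n = 3), followed by *Jun* at 14.6 ± 4.16 and *Jund* at 13.6 ± 1.08, which did not differ beyond their spread. *Junb* (7.08), *Ier5* (6.61), *Dusp1* (6.47), *Egr1* (5.95) and *Fos* (4.72 CPM per kilobase) came next, each within the spread of its neighbor. *Fosb* and *Atf3* were far lower, at 0.0558 and 0.0475 CPM per kilobase. In *Rpl22*-/- HSCs the means fell in the same order, from 29.4 CPM per kilobase for *Ier2* down to 9.16 for *Fos* and 0.277 for *Fosb*, with *Atf3* at 0.

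Expressed as shares of the family's reads per kilobase, the genotypes overlapped for every gene of the Jun and Fos families but *Fosl1*. *Jun* made up 34.0%, 43.9% and 54.7% of the Jun family in *Rpl22*-/- replicates 1 to 3 and 45.5%, 43.2% and 33.5% in *Rpl22*+/+ replicates 1 to 3. *Junb* took 21.8% ± 3.86 in *Rpl22*-/- and 20.4% ± 3.87 in *Rpl22*+/+ HSCs, and *Jund* 34.0% ± 6.59 and 38.9% ± 3.27 (SD, n = 3 each). In both genotypes *Fos* dominated the Fos family, with 69.9% ± 5.32 in *Rpl22*-/- and 62.4% ± 7.70 in *Rpl22*+/+ HSCs. *Fosl2* followed with 16.2% and 21.2%, and *Fosb* remained at 2.12% and 0.838%. *Fosl1* took 10.1%, 12.6% and 12.6% in *Rpl22*-/- replicates 1 to 3 and 16.8%, 14.9% and 15.0% in *Rpl22*+/+ replicates 1 to 3, so that its share was lower in every *Rpl22*-/- library. The level of *Fosl1* itself was not lower, at 3.12 CPM ± 0.457 in *Rpl22*-/- and 2.37 ± 0.926 in *Rpl22*+/+ HSCs (SD, n = 3 each), with overlap between genotypes. Its log2 fold change was 0.38 (edgeR adjusted p = 0.538). No share was tested for a difference.

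**Figure D4:**
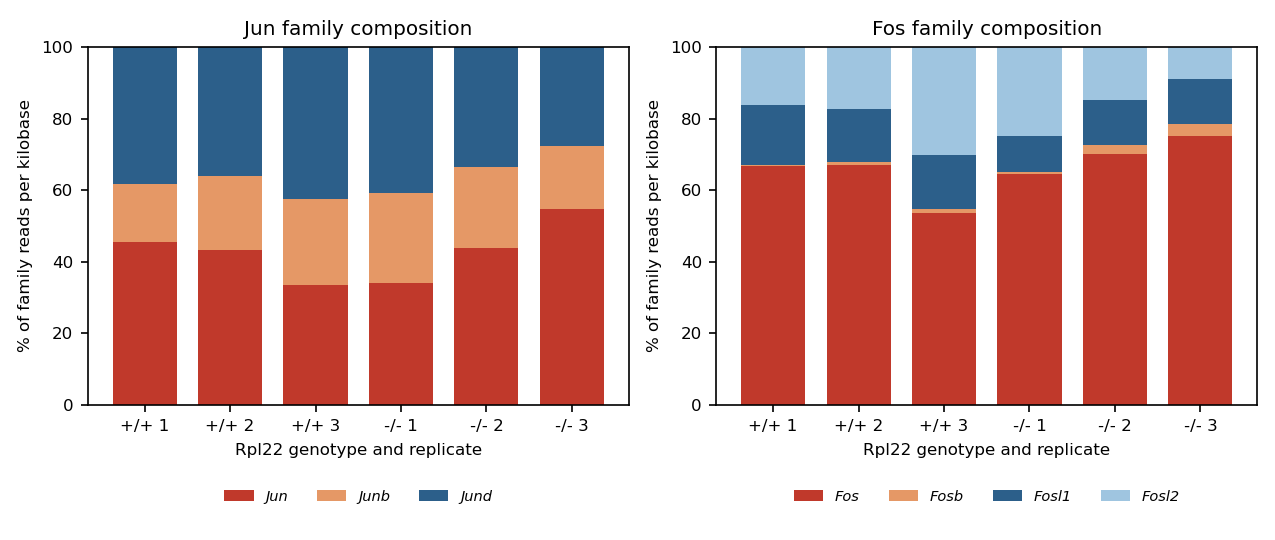
Share of each gene in the CPM per kilobase of the Jun family (left) and the Fos family (right), in percent, for each of the 3 *Rpl22*+/+ and 3 *Rpl22*-/- libraries. *Jun* ranges from 34.0% to 54.7% within the *Rpl22*-/- group alone, and *Fos* is the largest part of its family in every library.

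The wider rapid response and its regulators were counted in the same way. Of 69 other genes in 6 lists, 56 were tested, of which 35 were higher and 21 lower, and 6 were called, 5 as higher and 1 as lower, beside 5.57% of all genes tested (3.28% higher and 2.29% lower). Their median log2 fold change was 0.052, and a difference between these genes and the members was not tested. Without *Rpl22*-/- replicate 3 *Ppp1r15a* alone was called, and without *Rpl22*-/- replicate 2 or *Rpl22*+/+ replicate 1, 2 or 3 the number was 3, 3, 3 and 2, *Ppp1r15a* being among them each time. Without *Rpl22*-/- replicate 1 it was 9, and without the third library of each genotype edgeR called 0. In these fits the share of all genes called also changed, as given above beside the members. Among the other AP-1 relatives 1 of 7 tested was called, *Batf2*, which encodes a BATF-type partner of Jun proteins. It had 21.0, 24.7 and 28.3 CPM in *Rpl22*-/- replicates 1 to 3 and 14.9, 16.0 and 14.3 CPM in *Rpl22*+/+ replicates 1 to 3. The groups did not overlap (log2 fold change 0.71, SE 0.141, edgeR adjusted p = 0.0115), and the call was lost without *Rpl22*-/- replicate 3 and without *Rpl22*+/+ replicate 1 or 3.

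Of the other immediate early transcription factors 1 of 6 tested was called, *Myc*, the regulator of cell growth (398 CPM ± 36.1 against 270 ± 62.1, log2 fold change 0.56, edgeR adjusted p = 0.0243). *Myc* lost its call without *Rpl22*-/- replicate 2 or 3 and without *Rpl22*+/+ replicate 2 or 3. The paralogs of *Egr1* had almost no reads, at most 2 per library for *Egr2* and *Egr3* and 0 for *Egr4*. *Klf10*, next by p in this list, had a log2 fold change of 0.16 (edgeR adjusted p = 0.443). Among 12 other rapid response genes tested, *Ppp1r15a* rose, which encodes the phosphatase subunit that reverses the stress-induced block of translation initiation. Its 49.1, 49.7 and 52.7 CPM in *Rpl22*-/- replicates 1 to 3 were tightly grouped, as were its 32.8, 35.6 and 34.9 CPM in *Rpl22*+/+ replicates 1 to 3. The log2 fold change was 0.55 (SE 0.0975, edgeR adjusted p = 0.00639). *Zfp36l1*, whose product speeds the decay of short-lived transcripts, had a log2 fold change of 0.32 (edgeR adjusted p = 0.0743).

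**Figure D5:**
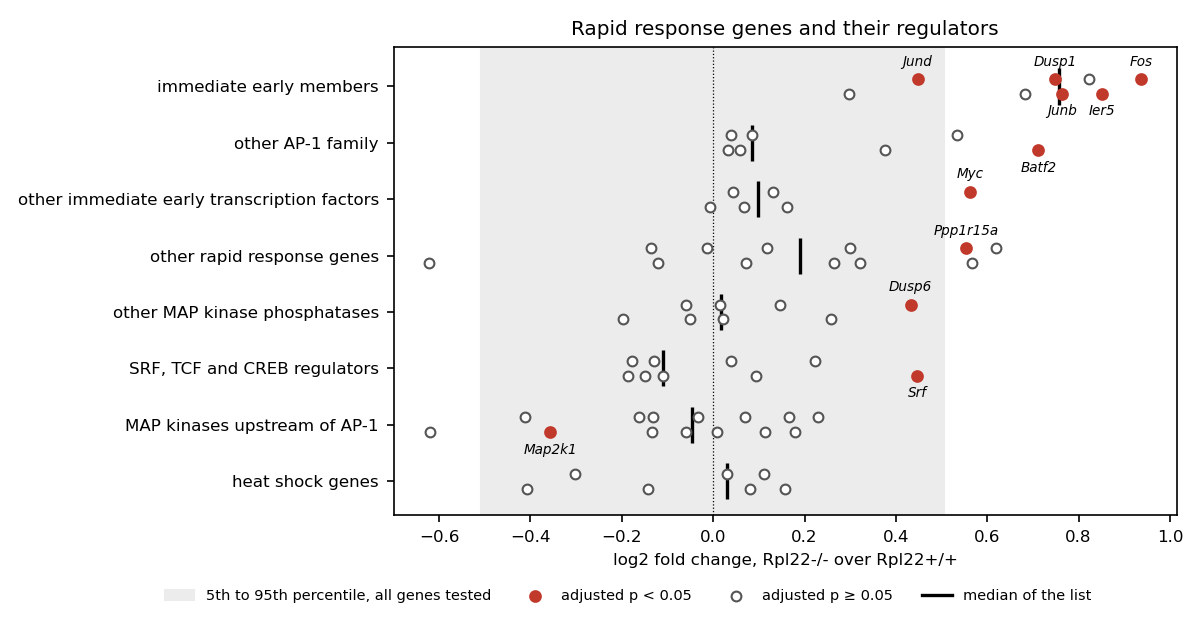
Log2 fold change of *Rpl22*-/- over *Rpl22*+/+ HSCs (horizontal axis) for the genes tested in the members, the 6 pathway lists and the heat shock genes, red where the edgeR adjusted p was below 0.05, with a bar for the median of each list and grey shading from the 5th to the 95th percentile of all genes tested. Of the 8 members tested 6 lie beyond the shading, while the medians of the other lists lie between -0.11 and 0.19.

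The feedback and the upstream pathway gave single calls. Of the other MAP kinase phosphatases 1 of 8 tested rose, *Dusp6*, which acts on ERK (54.1 CPM ± 3.89 against 40.0 ± 3.47, log2 fold change 0.43, edgeR adjusted p = 0.0243). It was lost without *Rpl22*-/- replicate 2 or 3 and without *Rpl22*+/+ replicate 1 or 3. *Dusp4* had a log2 fold change of 0.26 (edgeR adjusted p = 0.344). Of the SRF, TCF and CREB regulators 1 of 9 rose, *Srf* itself, the factor that binds the CArG box of immediate early promoters (74.8 CPM ± 4.29 against 54.9 ± 0.990, log2 fold change 0.45, edgeR adjusted p = 0.0106), whereas the median of this list was -0.11. The call of *Srf* was lost without *Rpl22*-/- replicate 3, without *Rpl22*+/+ replicate 2 and with the GC trend removed. *Elk4*, one of the partners of SRF, had a log2 fold change of 0.22 (edgeR adjusted p = 0.172). Of the 14 MAP kinases and their activating kinases 1 was called, *Map2k1*, the kinase that activates ERK, which fell (47.8 CPM ± 3.23 against 61.2 ± 4.88, log2 fold change -0.36, edgeR adjusted p = 0.0433). This call was lost without any one library other than *Rpl22*-/- replicate 1. *Mapk3*, which encodes ERK1, had a log2 fold change of 0.23 (edgeR adjusted p = 0.146).

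Heat shock genes, which also respond to stress and handling, were measured beside the members. In the test 0 of 7 were called by edgeR and by DESeq2, none had an unadjusted p below 0.05 in edgeR, and the median log2 fold change was 0.030. *Hspa1a*, *Hspa1b* and *Hspb1*, named because they were listed but not tested, had too few reads. *Hspa1b* had 1, 2 and 11 reads in *Rpl22*-/- replicates 1 to 3 and 32, 4 and 4 in *Rpl22*+/+ replicates 1 to 3. The corresponding reads of *Hspa1a* were 3, 0 and 0 against 14, 1 and 0, and those of *Hspb1* were 0, 1 and 0 against 3, 0 and 0. *Hsph1* and *Dnaja1* had the smallest p, with log2 fold changes of -0.41 and -0.30 (edgeR adjusted p = 0.251 and 0.263). Both depended on the wild-type libraries: without *Rpl22*+/+ replicate 1 the log2 fold changes were -0.084 and -0.049, and without *Rpl22*+/+ replicate 3 they were -0.66, which was called (edgeR adjusted p = 0.0402), and -0.47. Without a filter on low counts both were called as lower (edgeR adjusted p = 0.00133 and 0.0323). The summed level of the 10 genes was 3426 to 4784 CPM in *Rpl22*-/- and 3054 to 4767 CPM in *Rpl22*+/+ libraries. The highest totals belonged to *Rpl22*-/- replicate 2 and *Rpl22*+/+ replicate 1 and the lowest to *Rpl22*+/+ replicate 3, which was also the lowest wild-type library for 5 members. The time between marrow isolation and lysis is not given, and the part of handling in the members' rise was not tested.

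Markers of other cell types moved with the genotype in part. Of 7 megakaryocyte markers tested 5 rose, *Pf4*, *Itga2b*, *Gp9*, *Gp1bb* and *Treml1*, named after their values were seen, and the 8 listed summed to 1012 to 1279 CPM in *Rpl22*-/- against 722 to 952 CPM in *Rpl22*+/+ libraries, with *Gp6* at 0 throughout. Over all genes tested 5.57% were called, and the 5 markers became 4 without *Rpl22*-/- replicate 1 or *Rpl22*+/+ replicate 2, 3 without *Rpl22*-/- replicate 2 or 3, 2 without *Rpl22*+/+ replicate 1 or 3, and 0 in edgeR without the third library of each genotype, where 7 had an unadjusted p below 0.05. The shares of all genes called in the fits without 1 library are given above beside the members. The highest megakaryocyte sum belonged to *Rpl22*-/- replicate 1, the library in which most members were lowest of their genotype. Neutrophil markers summed to 96.5 to 211 CPM against 66.1 to 104 CPM, the highest in *Rpl22*-/- replicate 2, and 1 of 8, *Camp*, named after its values were seen, was called as higher. *Camp* had 11, 31 and 47 reads in *Rpl22*-/- replicates 1 to 3 and 10, 2 and 3 reads in *Rpl22*+/+ replicates 1 to 3. It passed the filter only through its *Rpl22*-/- reads, where it was high, so its call is not separate support for a rise. *Prtn3*, the most abundant, differed little (66.9 against 63.4 CPM). The median log2 fold change of the 8 was 1.53, 7 were higher, and 5 had an unadjusted p below 0.05. The calls were 4 without *Rpl22*-/- replicate 1 or *Rpl22*+/+ replicate 1, and 0 without *Rpl22*-/- replicate 2 or 3 or *Rpl22*+/+ replicate 2. B cell markers summed to 27.1 to 29.6 CPM against 23.2 to 25.2 CPM, with *Ms4a1* and *Igll1* at 0 in all libraries. T and NK cell markers summed to 50.7 to 60.8 CPM against 44.6 to 48.4 CPM, with *Cd3e* at 0. Monocyte and macrophage markers (207 to 266 against 215 to 233 CPM) and the 6 of 8 erythroid markers found in the table (27.2 to 31.5 against 26.7 to 28.5 CPM) overlapped between genotypes. The part of these cell types in the members' rise was not tested.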

How the data were processed

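The data were RNA-seq counts of sorted HSCs, 3 samples per genotype. The authors checked reads with FastQC, aligned them to mm10 with TopHat2 (2.1.1 in the submitters' processing notes) and deposited HTSeq counts per gene, whole numbers without normalization. The annotation and strand setting of the counting are not given in the sources used here. Lines for reads not assigned to genes, 58.6% to 60.9% of each library, were left out. Groups were taken from the labels. Of the 34573 genes, 14004 passed edgeR's filterByExpr (minimum count 10). They were scaled by TMM and tested by genotype, without covariates, with the quasi-likelihood test of edgeR 4.0.16 in R 4.3.3, and p-values were adjusted over these genes by the Benjamini-Hochberg method. DESeq2, which the study's methods name, was an alternative here (1.42.0). Each SE is the size of the log2 fold change divided by the square root of its F statistic. The precision of a gene rests on 3 values per group. The fit was first tested on simulated data.

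Positions and exon lengths were those of GENCODE M21 (GRCm38, the assembly of mm10), in which 30921 symbols matched, 1879 of them through an older symbol. BLAST 2.17.0 found no transcript of another locus aligning to a member over at least 100 bases at 90% identity. Promoters were RefSeq's (GRCm38.p6). The members and lists were chosen with earlier results of these data known. The genes named are *Rpl22*, the members and, in each list, the called genes (at most 4), or the 2 of smallest p where fewer than 2 were called, and exceptions are marked. The alternatives were other scaling (RLE, upper quartile, library size alone), other tests (DESeq2, limma-voom 3.58.1), other filters (none, or 10 counts in all samples), leaving out each library, a term for replicate number, and removal of trends on gene length and GC content (lowess, span 0.3). Replicates of a genotype all differed beyond counting noise. Replicate numbers did not pair the samples.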

Additional observations from a re-analysis of the deposited data

How the results depend on the processing

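All 8 members tested kept their direction in 19 alternatives, 17 planned and 2 chosen after seeing the data. In the full analysis 780 genes, 5 members and 6 genes of the pathway lists were called. With 1 library left out these numbers ran from 127 to 1720, from 1 to 8 (*Fosb* included) and from 1 to 9. The lowest of each belonged to the fit without *Rpl22*-/- replicate 3 and the highest to that without *Rpl22*-/- replicate 1. Without a filter on low counts 1422 genes and 8 members, *Fosb* among them, were called, and with the GC trend removed 506 and 3. With both trends removed they were 501 and 2, and with the third library of each genotype omitted 18 and 0, with 0 in the pathway lists. The causes were not tested, and every fit with libraries left out also had fewer samples. With library size alone 43.4% of the called genes were higher in *Rpl22*-/- HSCs instead of 58.8%, the median of all genes moved to -0.051, and 4 members were called. Replicate numbers were shared between genotypes, but the deviations of same-numbered libraries correlated at -0.10, 0.055 and 0.045 over 14004 genes, and not every library correlated best with its own number, so the numbers were not taken as pairs. With the replicate number as a block 904 genes and 6 members were called (*Egr1* gained, edgeR adjusted p = 0.00234), and 7 genes of the pathway lists (*Zfp36* gained). With the block and both trends removed these were 531, 4 and 4. Members with few reads, *Fosb* and *Atf3*, are limited by depth.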

Other observations

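*Zfp36*, a rapid response gene whose product binds AU-rich elements and speeds the decay of transcripts such as *Fos*, was singled out after its values were seen. It had 38.3, 57.3 and 85.5 CPM in *Rpl22*-/- replicates 1 to 3 and 33.6, 47.0 and 37.2 CPM in *Rpl22*+/+ replicates 1 to 3. *Rpl22*-/- replicate 3 was the highest library, as for *Fos*, *Jun*, *Ier5* and *Dusp1*, and replicate 1 lay among the wild-type libraries. The difference did not pass (log2 fold change 0.62, edgeR adjusted p = 0.0874), and it was called with the replicate number as a block, without a filter on low counts and without *Rpl22*-/- replicate 1. *Klf4* and *Arc* had too few reads for the test, with at most 16 and 12 reads in any library.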
